A study of Mus musculus with 6 samples.

Results

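Macrophages of the epididymal fat pad, a depot of white adipose tissue, were followed through 10 genes that mark them, in male mice aged 10 weeks. The genes are Spi1, Csf1, Csf1r, Adgre1, Ptprc, Cd68, Mpeg1, Lyz2, Laptm5 and Aif1. They were taken by name and were read by every probe set whose platform annotation gives that gene symbol alone, 20 of 45101 on the array. Of 18193 named genes on the array they are 10. The tested mice carried 1 ldi allele of Pparg and 1 wild-type allele (Pparg ldi/+), and the controls were litter-matched and carried no ldi allele (wild type). Both groups were males of a mixed C57BL6;129Sv background, and each of the 3 Pparg ldi/+ and 3 wild-type arrays (Affymetrix MOE430v2.0) held the RNA of a single mouse. The labels describe the Pparg ldi/+ mice as lipodystrophic. They give the allele as the genotype of the mouse and name no promoter or cell type that would restrict it.

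Pparg is the gene of a lipid-sensing nuclear receptor without which adipocytes do not form. Macrophages are the most common immune cells of fat; they arise from monocytes and from resident precursors, take up lipid and dead cells, and gather around dying adipocytes. Their survival depends on the receptor CSF1R, a tyrosine kinase that binds the growth factors CSF1 and IL-34. Their identity depends on the transcription factor PU.1, encoded by Spi1, which binds purine-rich sites with a GGAA core at many myeloid genes.

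Of the labels, tissue and genotype were set against the arrays through adipocyte markers and Pparg, and sex was not checked. Adipocyte markers were bright in every wild-type array, with Adipoq, the adiponectin gene, between 25739 and 28333. The Pparg signal was 1732, 1709 and 1901 in the 3 Pparg ldi/+ arrays, against 4378, 4440 and 4998 in the wild-type arrays (log2 difference -1.35, SE 0.084, limma adjusted p = 1.04e-05). All 5 adipocyte markers tested fell as well, so the lower Pparg signal alone does not check the genotype. Epididymal transcripts set 2 arrays apart. A list of 18 epididymal markers, of which 12 were analysed, summed to 24105, 32442 and 837 in Pparg ldi/+ arrays 1, 2 and 3, against 1356, 833 and 1706 in wild-type arrays 1, 2 and 3. Of the 8 that were tested, 5 had a wild-type mean below the filter on dim probe sets, and 4 rose, 3 of them (Lcn9, Cst12 and Teddm2) among those 5. That count was 0 without Pparg ldi/+ array 1 or 2 or any 1 wild-type array, and 7 without Pparg ldi/+ array 3. Lcn9 was at 4123, 5276 and 116.5 in the Pparg ldi/+ arrays, against 83.8, 98.0 and 18.7 in the wild-type arrays, and Teddm2 had a like pattern. The calls of the 10 genes are therefore also given with array 3 as the sole Pparg ldi/+ array.

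The promoters of 7 of the 10 genes were found in the RefSeq table for assembly GRCm38.p6, which gives 250 bases before and 50 after a gene's start. Ptprc has 2 entries there. Adgre1, Csf1r and Spi1 are named only. The 4 promoters shown here hold GAGGAA, the core of a PU.1 site, on either strand, and are shown because PU.1 is itself one of the 10 genes. They are written 5' to 3' on the gene's strand, with GAGGAA or its complement TTCCTC in capitals. They lie at chr17:35176003-35176302 (Aif1), chr11:69666121-69666420 (Cd68) and chr1:138175256-138175555 (Ptprc) on the minus strand, and at chr4:130913066-130913365 (Laptm5) on the plus strand.
Aif1: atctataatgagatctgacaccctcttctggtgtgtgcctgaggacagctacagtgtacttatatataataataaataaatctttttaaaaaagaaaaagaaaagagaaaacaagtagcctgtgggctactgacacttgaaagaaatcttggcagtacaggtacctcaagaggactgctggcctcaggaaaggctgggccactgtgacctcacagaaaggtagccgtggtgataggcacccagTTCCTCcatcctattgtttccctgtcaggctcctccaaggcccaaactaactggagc
Cd68: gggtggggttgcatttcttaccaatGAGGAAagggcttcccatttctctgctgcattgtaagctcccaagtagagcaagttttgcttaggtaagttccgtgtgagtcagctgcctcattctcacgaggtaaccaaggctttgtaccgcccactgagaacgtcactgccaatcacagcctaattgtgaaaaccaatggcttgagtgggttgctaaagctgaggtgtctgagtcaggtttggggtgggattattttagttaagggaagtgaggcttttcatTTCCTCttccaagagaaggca
Ptprc: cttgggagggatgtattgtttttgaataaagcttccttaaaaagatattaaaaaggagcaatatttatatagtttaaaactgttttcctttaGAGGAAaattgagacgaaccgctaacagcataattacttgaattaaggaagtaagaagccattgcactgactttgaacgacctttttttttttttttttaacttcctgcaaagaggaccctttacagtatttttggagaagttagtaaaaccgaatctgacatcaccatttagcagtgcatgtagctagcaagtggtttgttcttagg
Laptm5: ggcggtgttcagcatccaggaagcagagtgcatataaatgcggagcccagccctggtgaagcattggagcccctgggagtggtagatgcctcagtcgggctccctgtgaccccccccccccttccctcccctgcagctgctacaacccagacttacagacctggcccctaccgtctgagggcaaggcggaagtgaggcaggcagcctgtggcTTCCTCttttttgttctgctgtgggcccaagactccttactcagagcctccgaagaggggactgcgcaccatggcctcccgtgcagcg

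The match lies 7 bases before the start site in Aif1, 38 before it in Laptm5 and 158 before it in Ptprc. In Cd68 there is a match 225 bases before and another 30 bases after the start. Of the 8 promoter entries 4 held GAGGAA, as did 28.3% of all 32851 promoters in the table. A composite of PU.1 and IRF sites was found in 1 of the 8, Cd68, where it overlaps the second GAGGAA match, and in 2.72% of all promoters. TGANTCA, an AP-1 site, was found in Cd68 alone of the 8, at 149 and 24 bases before the start, and in 7.81% of all promoters. TTNNGCAA, a C/EBP site, was found in Cd68 and in 10.8% of all. Both strands were searched. Matches are letters in these windows and show no binding, and a promoter without one says nothing about the factor.

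All 10 genes were higher in Pparg ldi/+ fat, and all 10 rose in limma's test at an adjusted p below 0.05. Among the 11201 genes tested, 16.3% rose and 16.4% fell, 32.7% in either direction. The log2 differences of the 10 ran between 0.37 for Lyz2 and 3.26 for Aif1, with a median of 1.62, a 3.07-fold difference, where the median over all tested genes was -0.004. Of the 10, 8 rose at least 2-fold, as did 4.72% of tested genes. In all 10 every Pparg ldi/+ array lay above every wild-type array, which held for 23.6% of tested genes. None of the 10 needed its Pparg ldi/+ values to pass the filter on dim probe sets, since 0 had a wild-type mean below it. For each gene alone, the exact permutation test over the 6 arrays, two-sided, was at its minimum of p = 0.1. With array 3 as the sole Pparg ldi/+ array, 9 of the 10 rose, all but Lyz2, and the median was 1.53. The log2 differences of those 9 then lay between 0.88 for Csf1r and 3.02 for Aif1, with limma adjusted p of at most 0.00875. In whole fat, more macrophages and more RNA per macrophage cannot be told apart.

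**Figure D1:**
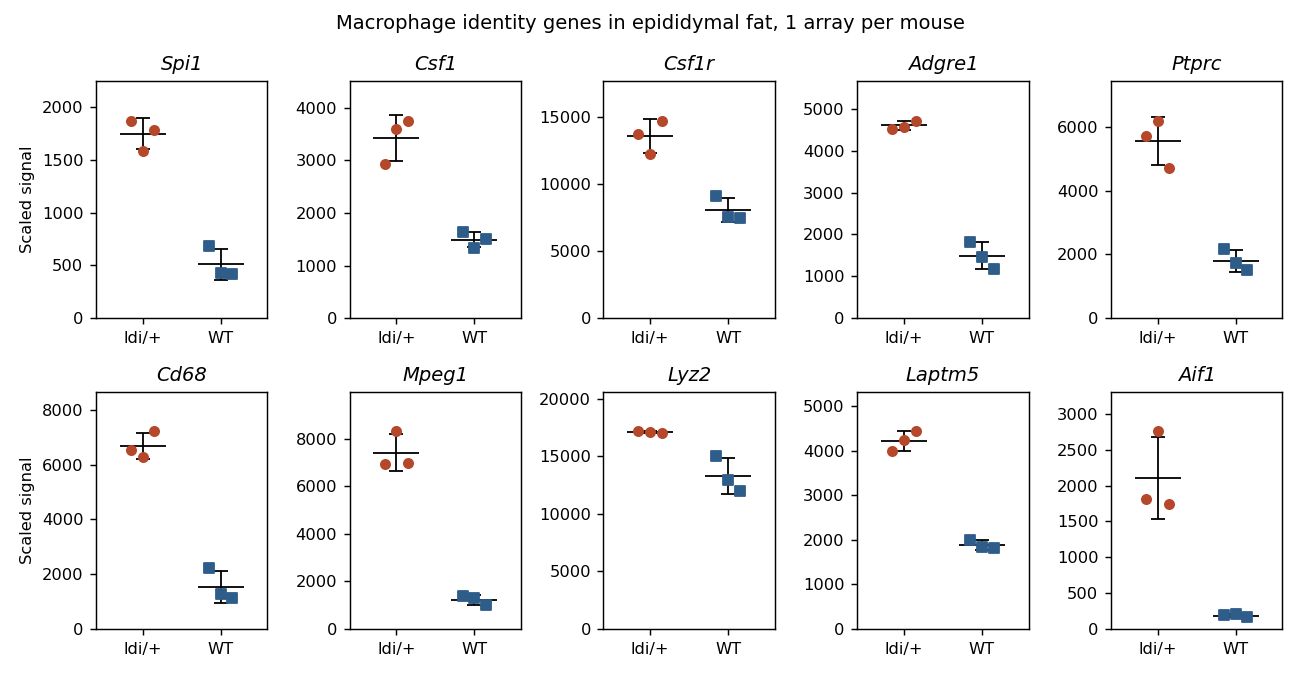
Signal of each gene's probe set, scaled to a trimmed array mean of 500, on a linear axis that starts at 0; circles are the 3 Pparg ldi/+ arrays and squares the 3 wild-type arrays, with the mean and SD as bars. In each panel the groups are separate, with the widest separation for Aif1 and the narrowest for Lyz2, whose Pparg ldi/+ arrays all lie between 17053 and 17193.

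Spi1, the gene of the transcription factor PU.1, rose 3.35-fold. Its signal was 1872, 1585 and 1780 in the Pparg ldi/+ arrays, against 680, 429 and 421 in the wild-type arrays. The lowest Pparg ldi/+ array was 2.33 times the highest wild-type array, which was array 1. In limma the log2 difference was 1.74 with an SE of 0.174 (95% interval 1.35 to 2.14, adjusted p = 0.000126), and the means were 1745 ± 147 and 510 ± 147 (SD, n = 3 each).

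Csf1, the macrophage growth factor, rose 2.26-fold by its brightest probe set. The signal was 2928, 3600 and 3754 in the Pparg ldi/+ arrays, against 1636, 1343 and 1504 in the wild-type arrays (log2 1.18, SE 0.115, limma adjusted p = 0.000116). Csf1 is made by stromal, endothelial and fat cells as well as by immune cells, so it is the member that is least a marker of the macrophage itself. Its 4 probe sets all rose, with log2 differences of 0.59, 1.18, 1.29 and 1.52. The smallest was that of 1425154_a_at, at 831.5, 879.7 and 760.4 in the Pparg ldi/+ arrays against 527.7, 550.5 and 526.7 in the wild-type arrays. That probe set's 95% interval, 0.36 to 0.83, lay below the intervals of the other 3, whose lowest bound was 0.91. With array 3 as the sole Pparg ldi/+ array it was at 0.48 and no longer passed (limma adjusted p = 0.13).

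Csf1r, the gene of the receptor for CSF1, rose by an amount that depended on the probe set. The brightest, 1419872_at, was read for the gene and gave 13765, 12282 and 14748 in the Pparg ldi/+ arrays, against 9088, 7587 and 7482 in the wild-type arrays, a 1.69-fold rise (log2 0.76, 95% confidence interval 0.53 to 0.98, limma adjusted p = 0.000559). A second, 1419873_s_at, gave 8035, 7136 and 7754 against 3146, 2418 and 2456, and rose 2.85-fold (95% interval of the log2 difference 1.27 to 1.76). The third, 1423593_a_at, gave 4803, 4119 and 5215 against 2321, 2053 and 2156, and rose 2.14-fold. The intervals of the first and second do not overlap, so the size of the rise in Csf1r is uncertain between them, while all 3 probe sets separated the groups. The mean of the 3 gave a log2 difference of 1.12.

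Adgre1 encodes F4/80, the adhesion-type receptor that is the standard surface marker of mouse macrophages. Its signal was 4528, 4564 and 4721 in the Pparg ldi/+ arrays, against 1828, 1470 and 1180 in the wild-type arrays. The Pparg ldi/+ mice lay close together (SD 103), while the wild-type mice were spread more widely (SD 325). The rise was 3.09-fold (log2 1.63, SE 0.14, limma adjusted p = 5.7e-05).

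Ptprc encodes CD45, the tyrosine phosphatase on the surface of all nucleated blood-derived cells, so it marks lymphocytes and other leukocytes as well as macrophages. The signal was 5705, 6194 and 4719 in the Pparg ldi/+ arrays, against 2175, 1720 and 1497 in the wild-type arrays. It rose 3.06-fold (log2 1.61, SE 0.147, limma adjusted p = 7.69e-05). Its other probe set, 1440165_at, was too dim to be tested, at 190.3, 177.5 and 174.1 against 48.1, 72.3 and 34.0. It too had every Pparg ldi/+ array above every wild-type array.

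Cd68 encodes macrosialin, a heavily glycosylated protein of the lysosomes and endosomes of phagocytes. Its signal was 6536, 6277 and 7218 in the Pparg ldi/+ arrays, against 2221, 1261 and 1147 in the wild-type arrays. Wild-type array 1 was the highest of its group, and the lowest Pparg ldi/+ array was still 2.83 times as high. The rise was 4.44-fold (log2 2.15, SE 0.213, limma adjusted p = 0.000124), with a 95% interval of 1.66 to 2.64, the widest of the 10 genes.

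Mpeg1 encodes perforin-2, a pore-forming protein with which phagocytes attack engulfed bacteria. Its signal was 6955, 8310 and 6975 in the Pparg ldi/+ arrays, against 1397, 1296 and 997 in the wild-type arrays. It had the smallest p of the 10 (limma adjusted p = 4.34e-06), with a 5.94-fold rise (log2 2.57, SE 0.131). The lowest Pparg ldi/+ array was 4.98 times the highest wild-type array.

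Aif1 encodes IBA1, a calcium-binding protein that bundles actin in macrophages and microglia. Its signal was 1813, 2759 and 1737 in the Pparg ldi/+ arrays, against 188, 211 and 160 in the wild-type arrays. Pparg ldi/+ array 2 was higher than the other two, and the lowest of the 3 was 8.22 times the highest wild-type array. The rise was 9.6-fold (log2 3.26, SE 0.183, limma adjusted p = 6.68e-06), the largest of the 10 and the 16th largest of all 11201 tested genes. Its wild-type signal was dim enough for the offset to matter: the log2 difference was 2.92 with 100 added in place of 32 and 3.47 with a floor of 32.

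Laptm5 encodes a membrane protein of the lysosomes of blood-derived cells, which in lymphocytes helps to send antigen receptors to degradation. The probe set read for it, 1426025_s_at, gave 3994, 4238 and 4441 in the Pparg ldi/+ arrays, against 2005, 1832 and 1810 in the wild-type arrays, a 2.22-fold rise (log2 1.15, SE 0.079, limma adjusted p = 1.63e-05). The probe sets 1417721_s_at and 1436905_x_at rose by 1.36 and 1.57. The remaining 2 of the 5 did not follow. Probe set 1459841_x_at was at 360.4, 531.2 and 460.5 against 449.9, 475.4 and 458.6, with a log2 difference of -0.05 (95% confidence interval -0.38 to 0.29, limma adjusted p = 0.846). Probe set 1447742_at was too dim to be tested, between 18.3 and 102.8 in the Pparg ldi/+ arrays and between 15.3 and 148.6 in the wild-type arrays. With the mean of all 5 the log2 difference was 0.71 and still passed.

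Lyz2 encodes lysozyme M, the enzyme with which myeloid cells cleave bacterial cell walls. It had the smallest rise, 1.29-fold. Its signal was 17193, 17150 and 17053 in the Pparg ldi/+ arrays, against 15008, 12912 and 11970 in the wild-type arrays (log2 0.37, 95% confidence interval 0.18 to 0.57, limma adjusted p = 0.0102). It did not pass when array 3 was the sole Pparg ldi/+ array (log2 0.37, limma adjusted p = 0.165). The probe set was among the brightest on the array, with 150 of 45037 brighter, and the SD of its Pparg ldi/+ arrays was 72.0, against 1555 in wild type. Whether the signal nears the upper limit of the array was not tested.

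Lyz1 is a near-identical copy of Lyz2, and probe sets of one may detect the other, so the pair is uncertain. Of the 3 probe sets annotated to Lyz1, 1439426_x_at gave 15437, 16048 and 16109 in the Pparg ldi/+ arrays against 7603, 6765 and 5756 in the wild-type arrays, and rose 2.37-fold. Another, 1436996_x_at, rose 1.47-fold. The third, 1450822_at, was at 114.2, 124.5 and 205.2 against 279.2, 200.1 and 177.1, which did not pass (log2 -0.49, limma adjusted p = 0.16).

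Across all probe sets of the 10 genes, 18 of 20 were bright enough to be tested and 17 rose, where 14.5% of the 22519 tested probe sets rose. Of the 20, 18 had every Pparg ldi/+ array above every wild-type array, the dim one of Ptprc included and 2 of Laptm5 excepted. That order held for 21.8% of tested probe sets. With array 3 as the sole Pparg ldi/+ array 15 of 18 tested probe sets rose, and the 2 that no longer passed were that of Lyz2 and 1425154_a_at of Csf1.

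**Figure D2:**
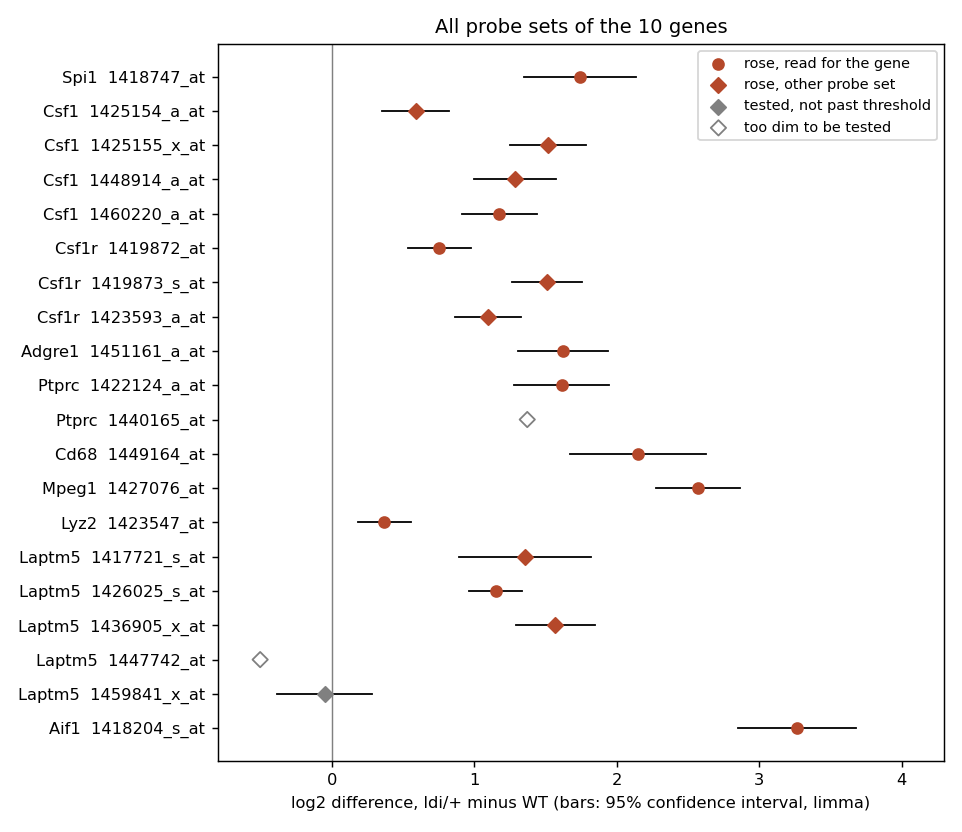
Log2 difference of every probe set of the 10 genes, Pparg ldi/+ minus wild type, with the 95% confidence interval from limma; circles mark the probe set read for a gene, filled diamonds its other tested probe sets and open diamonds those too dim to be tested. Of the tested probe sets, 17 lie to the right of 0 and 1, of Laptm5, spans it.

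The 10 genes did not rise by like amounts. On each array the log2 signal of a gene was set against the mean of the 10 on the same array, which removes any scaling of the array. Relative to that mean, Aif1 was 1.62 higher in Pparg ldi/+ than in wild-type fat, Mpeg1 0.93 higher and Cd68 0.51 higher, with no overlap between the groups. Lyz2 was lower by the same measure (difference -1.27), as were Csf1r (-0.89), Laptm5 (-0.49) and Csf1 (-0.47), again with no overlap. The mean includes each of these genes, so the 10 differences balance and some must be negative where others are positive. A negative value here is a smaller rise, not a fall. Adgre1, Ptprc and Spi1 followed the mean, with differences of -0.02, -0.03 and 0.10 and overlapping groups. For Csf1, Csf1r and Laptm5 the order rests on the probe set read, since 1425155_x_at of Csf1, 1419873_s_at of Csf1r and 1436905_x_at of Laptm5 differed by 1.52, 1.51 and 1.57 between the genotypes, close to the median of the 10.

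**Figure D3:**
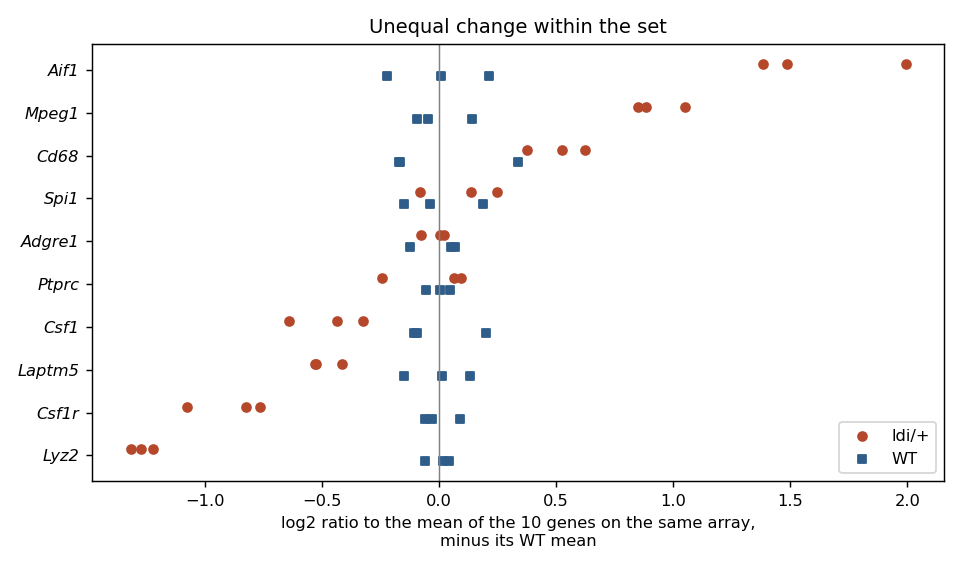
For each gene, the log2 ratio to the mean of the 10 genes on the same array, minus its wild-type mean; circles are Pparg ldi/+ arrays and squares wild-type arrays. The circles of Aif1, Mpeg1 and Cd68 lie right of all their squares, those of Csf1, Laptm5, Csf1r and Lyz2 left of all theirs, and those of Spi1, Adgre1 and Ptprc among them.

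Within the wild-type group the genes moved together. Wild-type array 1 had the highest signal of its group for 9 of the 10, all but Aif1, and array 3 the lowest for 9, all but Csf1. Among all tested genes array 1 was the highest wild-type array in 29.6% and array 3 the lowest in 32.3%. Of 20 other macrophage genes, 16 were highest in array 1 and 13 lowest in array 3. The mean log2 signal of the 10 was 10.96, 10.67 and 10.53 in wild-type arrays 1, 2 and 3, and 12.32, 12.41 and 12.36 in the Pparg ldi/+ arrays. The Pparg ldi/+ arrays had no such order, with arrays 1, 2 and 3 highest for 2, 3 and 5 of the genes. Without wild-type array 1 the median log2 difference of the 10 was 1.77 and without array 3 it was 1.48.

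Most other macrophage and monocyte genes rose as well. This list was chosen, as the others below were, with earlier results of these data known. The shares to set beside every list are 16.3% of all tested genes that rose and 16.4% that fell. Of 20 tested, 19 rose and 0 fell, with a median log2 difference of 1.68, and their summed signal was 111566 to 114047 in Pparg ldi/+ arrays and 32291 to 44153 in wild-type arrays. Ms4a7, a membrane protein of macrophages, was at 3252, 4133 and 2957 against 414, 391 and 345 and rose 8.32-fold (limma adjusted p = 2.38e-06). C1qb, a chain of the complement protein C1q, rose 3.24-fold. The exception was Mertk, a receptor for the uptake of dying cells, at 651, 656 and 746 in Pparg ldi/+ against 696, 719 and 952 in wild type (log2 -0.19, limma adjusted p = 0.331). Of the 20, 17 rose when array 3 was the sole Pparg ldi/+ array.

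Among 20 tested genes of the colony-stimulating factor receptors, their ligands and their signalling, 14 rose and 2 fell, with a median of 0.70. Of all tested genes 16.3% rose and 16.4% fell, so the 2 that fell are no more than that share. The inhibitory receptor gene Pirb rose 3.62-fold and Csf2rb2, a beta chain of the interleukin-3 receptor, rose 3.11-fold. Csf2rb, the related beta chain gene, was higher but did not pass (log2 0.34, limma adjusted p = 0.052). The 2 that fell were ligands. Il34, which encodes the other ligand of CSF1R, was at 299.0, 360.4 and 337.2 in Pparg ldi/+ arrays, against 458.1, 631.1 and 587.5 in wild-type arrays (log2 -0.69, SE 0.147, limma adjusted p = 0.00714). Of the 2 ligands of the receptor Csf1 rose and Il34 fell, with no overlap of the groups in either. Il34 was at -0.67 and no longer passed when array 3 was the sole Pparg ldi/+ array (limma adjusted p = 0.1), where 10 of the 20 rose and 0 fell. Kitl, the ligand of the stem cell receptor KIT, had a log2 difference of -0.30, and its call ended without any 1 array other than wild-type array 1, at -0.32 to -0.26. Csf2 and Csf3 were too dim to be tested, with signals between 12.5 and 38.5 on all 6 arrays.

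Of 14 tested transcription factors of myeloid cells, 5 rose and 2 fell, with a median of 0.42. Among all tested genes 16.3% rose and 16.4% fell, so the 2 that fell are no more than that share. Irf8, a partner of PU.1 on composite sites, was at 1586, 1757 and 1282 in Pparg ldi/+ arrays against 449, 442 and 464 in wild-type arrays and rose 3.23-fold (limma adjusted p = 2.43e-05), close to Spi1. Maf, which is active in resident macrophages, rose 1.74-fold. The 2 that fell were Nr1h3, the oxysterol receptor LXR alpha, at -0.68, and Zeb2, a zinc finger repressor, at -0.46; fat cells and stromal cells express both as well. Zeb2 no longer passed with array 3 as the sole Pparg ldi/+ array (-0.54, limma adjusted p = 0.0612). Cebpb, named after its value was seen, did not pass (log2 -0.03, limma adjusted p = 0.857).

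**Figure D4:**
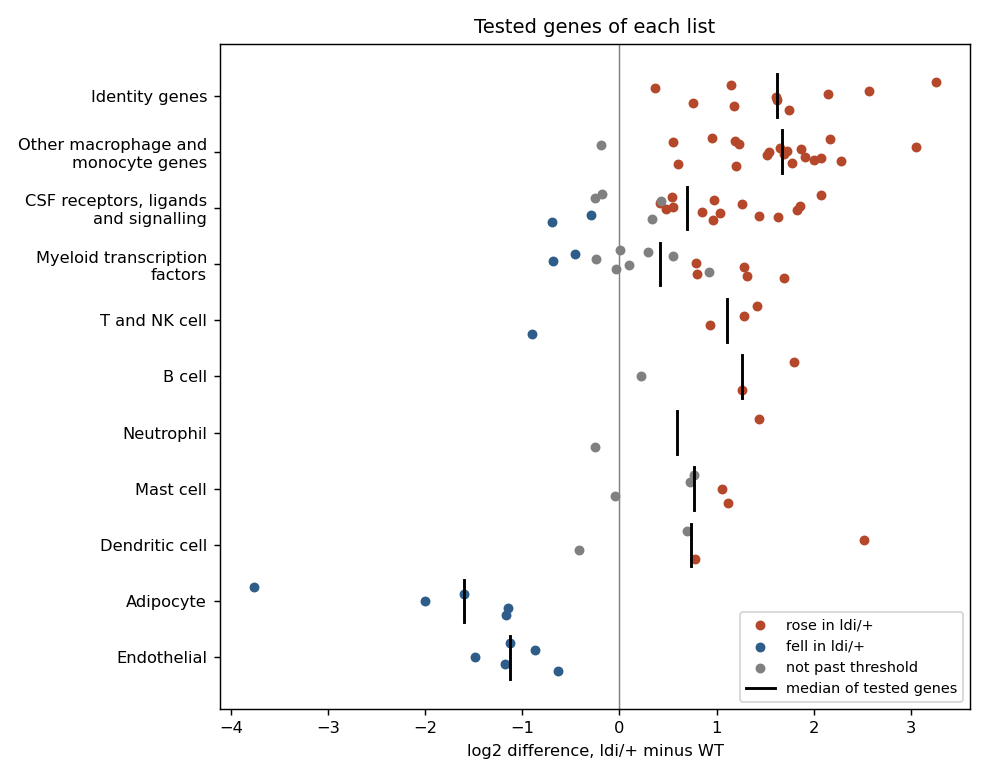
Log2 difference, Pparg ldi/+ minus wild type, of each tested gene of a list; red points rose, blue points fell, grey points did not pass, and the black bar is the median of the tested genes. The 10 identity genes and the other macrophage genes have medians of 1.62 and 1.68, while all 5 adipocyte and all 5 endothelial genes lie left of 0.

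Markers of other leukocytes, which also carry Ptprc and Laptm5, were dim by comparison and often too dim to be tested. Of 11 T and NK cell markers analysed 4 were tested, and 3 of these had a wild-type mean below the filter and passed through their Pparg ldi/+ values. Those 3 rose, led by Klrd1 at 1.29 and Nkg7 at 1.42, genes of cytotoxic lymphocytes, and Cd247, a T cell receptor chain, fell by 0.90. Other T cell genes, too dim to be tested, did not go with Cd247. Cd3d was at 212.2, 310.4 and 93.6 in Pparg ldi/+ arrays against 17.9, 6.3 and 12.1 in wild-type arrays. Cd3g, Cd4 and the NK cell gene Ncr1 were also higher with no overlap, while Cd3e, Cd2 and Cd8a overlapped. The summed signal of the 11 markers was 1791 to 3283 in Pparg ldi/+ arrays and 865 to 1212 in wild-type arrays. Of 3 tested B cell markers 2 rose, Cd22 at 1.80 and Cd79b at 1.26, the second with a wild-type mean below the filter, with sums of 1324 to 1573 against 469 to 646. With array 3 as the sole Pparg ldi/+ array 0 of 3 tested T and NK cell markers rose, Cd247 no longer passed (-0.86, limma adjusted p = 0.0641) and 1 of 2 B cell markers rose, and 1 of 2 B cell markers rose also without any 1 Pparg ldi/+ array.

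Markers of granulocytes, mast cells and dendritic cells were mixed. Of 2 tested neutrophil markers Csf3r, the receptor for granulocyte colony-stimulating factor, rose by 1.43. Csf3r is also counted among the colony-stimulating factor receptors above. The other, S100a8, an abundant protein of neutrophils, was at 573.0, 558.4 and 416.0 in Pparg ldi/+ arrays against 917.8, 989.9 and 248.2 in wild-type arrays. It did not pass (log2 -0.26, limma adjusted p = 0.695). Without wild-type array 3, the low one, S100a8 fell (log2 -0.86, limma adjusted p = 0.00481). The sums of the 10 neutrophil markers overlapped, 1652 to 2104 against 1107 to 1776. Of 5 tested mast cell markers 2 rose, the protease genes Cpa3 at 1.12 and Mcpt4 at 1.06, with sums of 2501 to 3346 against 1210 to 2362. The call of Mcpt4 ended without any 1 Pparg ldi/+ array or without wild-type array 1 or 2, at 0.73 to 1.14, and 4 of the 5 rose without wild-type array 3. Neither passed when array 3 was the sole Pparg ldi/+ array. None of the 3 eosinophil markers could be tested (0), and Epx, which encodes eosinophil peroxidase, lay between 4.5 and 13.9 on all arrays. Of 4 tested dendritic cell markers 2 rose, Itgax at 2.52, which macrophages of fat also express, and Flt3 at 0.78, which had a wild-type mean below the filter and whose call ended without Pparg ldi/+ array 1 or 2 or wild-type array 1 or 3, at 0.57 to 0.81. The dendritic cell sums were 3948 to 5014 against 1024 to 1556. Most of them was Itgax, at 3360, 2893 and 4026 in Pparg ldi/+ arrays against 702, 590 and 438 in wild-type arrays. Zbtb46 was lower, at 303, 275 and 272 against 435, 424 and 319, and did not pass (limma adjusted p = 0.0641). Cd209a overlapped between the groups, and Xcr1 and Ccr7, too dim to be tested, were higher in Pparg ldi/+ arrays. No marker of these lists was at 0 on any array. The part of other leukocytes in the signals of Ptprc, Laptm5 and the other identity genes was not tested.

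Most markers of the pad's own cells fell or did not pass. All 5 adipocyte markers tested fell, with a median of -1.60 and sums of 26901 to 32650 in Pparg ldi/+ arrays against 87261 to 101625 in wild-type arrays, led by Retn, the resistin gene, at -3.76 and Cidec, which encodes a lipid droplet protein (95% interval -2.21 to -1.79). All 5 endothelial markers fell, with a median of -1.12, among them the vessel genes Kdr at -1.48 and Esam at -1.12. Of 4 mesothelial markers 3 fell, led by Msln at -1.62 and Krt19 at -1.23. Of 5 stromal markers 1 rose, the collagen gene Col1a1 at 0.86, and 1 fell, the matrix gene Dpt at -0.38, whose call ended without Pparg ldi/+ array 1, at -0.33, and with array 3 as the sole Pparg ldi/+ array, at -0.18. The stromal sums were 62816 to 68034 against 62190 to 65594. Signals are scaled to a common array mean, so a smaller share of RNA from one cell type raises the share of the others, and its part in the rise of the 10 genes was not tested.

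The 5 tested genes whose profiles over the 6 arrays lay closest to the mean profile of the 10 were C1qb, Rac2, Etv5, Cd53 and Shtn1. Likeness was the root mean square distance of log2 values centred on each gene's mean, and it was 0.046, 0.049, 0.058, 0.059 and 0.059 for these genes. C1qb, Rac2, a GTPase of blood-derived cells, and Cd53, a tetraspanin of leukocytes, differed by 1.70, 1.58 and 1.73 between the genotypes. Shtn1 differed by 1.64. Genes chosen by this likeness must differ by about as much as the mean of the 10, so these differences are no separate result. Etv5, a transcription factor of the ETS family to which PU.1 also belongs, was at 974, 1020 and 1019 in Pparg ldi/+ arrays against 350, 320 and 270 in wild-type arrays. Among the 10 genes themselves the distance was smallest for Adgre1, at 0.069, and largest for Aif1, at 0.841.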

How the data were processed

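The authors deposited a linear intensity for every probe set of 6 Affymetrix MOE430v2.0 arrays. Per the submitters' processing notes, which name it for 2 samples, the authors made them with MAS5. The sources used here give neither its version nor its scaling target, and no detection call was used, so no probe set could be called above background. Total RNA was prepared with Tri Reagent, DNase and a phenol step and carried a biotin label, per the labels' protocols.

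Arrays were brought to a common trimmed mean of 500 (2% of values left out at either end; factors 2.12 to 2.49), and signals in the text are on this scale. Log2 was taken after adding 32, which shrinks differences of dim genes. The 64 control probe sets were left out. Probe sets were named where the platform annotation gave 1 symbol (34945), and symbols were updated through a RefSeq table of assembly GRCm38.p6 (34741 matched). The older names Emr1, Lyzs and Sfpi1 were accepted for Adgre1, Lyz2 and Spi1. For each gene the probe set of highest mean was read, leaving out x_at sets, which may cross-hybridise, where another existed. Features dimmer than the median probe set (mean log2 below 7.465) were not tested.

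The comparison of genotypes used limma 3.58.1 under R 4.3.3, with lmFit on genotype alone over the 6 arrays and a trended eBayes. P-values were adjusted by Benjamini-Hochberg over all tested genes, or over all tested probe sets where probe sets of a gene are compared. Rose and fell mean past 0.05. Folds come from the log2 differences, and errors are SD or SE over 3 mice a group. The fit was tested on simulated data. Where array 3 is the sole Pparg ldi/+ array, that lone array is assumed to vary like the wild-type arrays.

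The 10 genes, the gene lists and the alternatives were chosen with earlier results of these data known. Named beside the 10 genes are Pparg, the 2 genes of each list with the smallest p, those called against their list and the 5 nearest profiles. Others (Adipoq, Cst12, Mertk, Cebpb, Csf2, Csf2rb, Csf3, Epx and the Lyz1 probe sets) were chosen after their values were seen. So were Cd3d, Cd3e, Cd3g, Cd2, Cd4, Cd8a, Ncr1, Zbtb46, Cd209a, Xcr1 and Ccr7.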

Additional observations from a re-analysis of the deposited data

How the results depend on the processing

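In 19 alternatives (offset, scaling, filter, variance model, threshold, choice of probe set, the number as a block, and arrays left out) each of the 10 genes stayed positive and 9 of them passed in every one; Lyz2 did not pass at a threshold of 0.01 or with array 3 as the sole Pparg ldi/+ array. The count of all genes that rose and fell was 1085 and 1153 at that threshold and 730 and 886 with array 3 alone, where 34 of 91 listed genes rose against 52 of 98 with all arrays; with fewer arrays fewer genes are called at a given size. With no filter on dim probe sets 18 of 20 probe sets of the 10 genes rose. Probe set 1459841_x_at of Laptm5 turned to 0.003 with unscaled values and to 0.095 without Pparg ldi/+ array 1, and S100a8 to 0.021 and 0.074 without wild-type array 1 or 2, none past the threshold, and the cause was not tested. Leaving out 1 array gave -0.166 to 0.095 for that probe set and -0.86 to 0.074 for S100a8, which passed only at -0.86, without wild-type array 3. The titles give both genotypes the numbers 1 to 3. Deviations from the group mean had r = -0.127, -0.086 and -0.095 across genes for arrays of the same number. For arrays of different numbers r was 0.036 to 0.076. With 3 arrays a group centred on their own mean, these r depend on one another and cannot show whether the numbers mark pairs. With that number as a replicate block 1568 genes rose and 1598 fell, and 10 of the 10 identity genes rose. Under the block the call of Kitl ended (log2 -0.30) and 4 of 5 mast cell markers rose; no other named gene changed its call. Unscaled values ended the calls of Kitl (-0.24) and Dpt (-0.32), a fit with no intensity trend those of Kitl, Mcpt4 and Lcn9 (adjusted p = 0.0504, 0.0523 and 0.0537 in limma), and testing dim probe sets too ended those of Mcpt4, Flt3, Lcn9 and Teddm2. Without detection calls, dim signals such as those of Csf2, Csf3 and Epx have no measured floor.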
